A study of Mus musculus with 36 samples.

Results

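All-trans retinoic acid (atRA), the carboxylic acid made from vitamin A, was compared with its vehicle DMSO after 24 h in mouse intestinal organoids, across all genes. The members are the libraries that carry these labels: 4 libraries treated with atRA at 10 µM and 4 with DMSO, 8 of the 36 samples in the series. Organoids are epithelial cultures grown from intestinal stem cells in a gel. Here 2 cultures were used, started from male littermates of the C57BL/6 strain (wild type, 8 weeks old), and RNA was purified in duplicate from each culture, so every group had 4 libraries but n = 2 cultures. Cells were seeded singly at 50000 per well and kept until day 3 in medium with EGF, Noggin and R-spondin plus 20% Wnt3a-conditioned medium, the ROCK inhibitor Y-27632 at 10 µM and the GSK3 inhibitor CHIR99021 at 3 µM. On day 3 the last 3 were withdrawn in both groups and atRA was added at the same moment, and 3 wells were pooled for each RNA. The 24 h values therefore hold the response to the medium change in both groups, and only their difference is that between atRA and DMSO. The labels give no amount for DMSO and no segment of intestine. The same cultures were also sampled at 6 h with atRA or DMSO, and at 24 h with 9-cis retinoic acid (9cisRA, 10 µM), and these are used below only to show where the 24 h atRA response differed.

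Retinoic acid binds the retinoic acid receptors (RARs), transcription factors that sit on DNA as pairs with a retinoid X receptor (RXR). RXR is also the partner of receptors for bile acids (FXR, gene Nr1h4), fatty acids (PPARs) and oxysterols (LXRs), and its 9-cis ligand can act through some of these pairs. Cells limit retinoic acid by inducing the CYP26 enzymes that break it down, and enterocytes, the absorptive cells, limit its supply through the transcription factor Isx, which lowers vitamin A uptake. FXR in the ileum raises Fgf15, a hormone that reduces bile acid synthesis in the liver, and the transporters that pass bile acids to the blood.

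The promoters of 6 genes that carry the response are shown first, because 5 of them are the genes of the retinoic acid catabolism and bile acid lists that rose at least 2-fold and have an entry in the promoter table, and the sixth, Pdk4, had the smallest adjusted p of all genes. Each run is the strand of the gene, 5′ to 3′, from 250 bases before to 50 bases after the RefSeq start on GRCm38.p6, and capitals mark nuclear receptor hexamers, each 1 arm of a receptor pair's site (AGGTCA and its variant GGGTCA, and also AGTTCA with its variant GGTTCA, on either strand).
Cyp26b1 (chr6:84593761-84594060, minus strand): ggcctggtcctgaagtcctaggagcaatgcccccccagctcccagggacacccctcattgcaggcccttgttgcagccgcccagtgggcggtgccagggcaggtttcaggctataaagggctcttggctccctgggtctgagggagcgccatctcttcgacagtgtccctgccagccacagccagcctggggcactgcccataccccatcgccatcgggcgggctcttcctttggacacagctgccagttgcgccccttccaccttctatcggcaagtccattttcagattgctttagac
Fabp6 (chr11:43601513-43601812, minus strand): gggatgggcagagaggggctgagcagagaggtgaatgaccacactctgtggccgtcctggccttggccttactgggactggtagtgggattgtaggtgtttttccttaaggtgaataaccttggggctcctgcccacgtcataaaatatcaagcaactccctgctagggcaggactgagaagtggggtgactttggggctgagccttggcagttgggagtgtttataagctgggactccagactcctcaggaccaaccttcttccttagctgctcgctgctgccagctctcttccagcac
Slc51b (chr9:65422724-65423023, minus strand): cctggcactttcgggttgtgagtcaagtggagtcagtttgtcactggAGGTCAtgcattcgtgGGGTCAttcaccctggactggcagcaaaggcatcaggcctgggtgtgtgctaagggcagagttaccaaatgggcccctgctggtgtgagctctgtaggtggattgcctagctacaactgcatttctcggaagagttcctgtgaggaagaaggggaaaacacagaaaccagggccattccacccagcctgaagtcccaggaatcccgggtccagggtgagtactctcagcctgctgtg
Slc51a (chr16:32487830-32488129, minus strand): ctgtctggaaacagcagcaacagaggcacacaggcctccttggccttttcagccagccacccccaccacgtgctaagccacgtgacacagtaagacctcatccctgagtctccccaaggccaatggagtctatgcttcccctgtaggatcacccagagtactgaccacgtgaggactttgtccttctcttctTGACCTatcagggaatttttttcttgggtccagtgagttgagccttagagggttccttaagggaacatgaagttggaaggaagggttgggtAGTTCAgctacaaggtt
Nr0b2 (chr4:133553126-133553425, plus strand): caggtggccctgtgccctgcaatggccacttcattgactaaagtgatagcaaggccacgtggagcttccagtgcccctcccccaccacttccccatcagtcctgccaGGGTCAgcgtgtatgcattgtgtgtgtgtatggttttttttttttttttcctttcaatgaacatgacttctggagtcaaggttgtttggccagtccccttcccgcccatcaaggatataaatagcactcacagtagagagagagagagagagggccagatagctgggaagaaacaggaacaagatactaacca
Pdk4 (chr6:5496229-5496528, minus strand): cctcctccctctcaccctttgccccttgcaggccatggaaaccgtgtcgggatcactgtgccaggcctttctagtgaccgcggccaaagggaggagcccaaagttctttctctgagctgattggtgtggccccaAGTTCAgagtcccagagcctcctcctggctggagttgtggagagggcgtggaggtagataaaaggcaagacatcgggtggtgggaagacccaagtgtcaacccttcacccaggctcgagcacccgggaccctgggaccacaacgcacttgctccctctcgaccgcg
Hexamers were found in Slc51b (2), Slc51a (2, one of them reversed), Nr0b2 (1) and Pdk4 (1), and none in the windows of Cyp26b1 and Fabp6. None of the 6 windows held a pair of these exact hexamers, either as a direct repeat with 1 to 5 bases between or as an inverted repeat with 1 base between. Only exact copies were sought, so arms that differ from them by a base were not counted. Receptor sites with such arms are therefore not shown to be absent, in the windows of Fabp6 and Slc51b as in the others. Over all 32851 RefSeq promoter windows of this length 43.7% held at least 1 hexamer and 0.734% held a pair, and over the 11408 windows of tested genes 38.1% and 0.412%. Among the 83 windows of genes that rose at least 2-fold these shares were 66.3% and 1.20%, and among the 30 windows of genes that fell at least 2-fold 43.3% held a hexamer and 0 held a pair. Some genes have several windows, so these shares are descriptions without a test.

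Values are RPKM, read counts scaled to gene length and library size. The 8 libraries held 25.0 to 28.4 M recovered reads. The library sizes by which the deposited values were scaled were smaller, 23.1 to 24.3 M with atRA and 25.3 to 27.3 M with DMSO. At these sizes 1 read of a 2000-base gene was worth 0.0183 to 0.0216 RPKM. Across genes the duplicates of a culture correlated at 0.997 to 0.998, the 2 cultures of a group at 0.993 to 0.996, and atRA with DMSO libraries at 0.982 to 0.989. All 7 epithelial markers were present, and Epcam, the epithelial adhesion protein, had 453 to 479 RPKM with atRA and 445 to 511 RPKM with DMSO. Of 14 stromal markers 3 were in the table, with a summed level of 2.15 to 2.87 RPKM with atRA and 2.21 to 3.54 RPKM with DMSO, and of 21 immune cell markers 3, with sums of 3.95 to 5.50 RPKM with atRA and 3.67 to 5.23 RPKM with DMSO. The only one of 13 endothelial and neural markers, S100b, had 0.498 to 0.722 RPKM with atRA and 0.542 to 0.662 RPKM with DMSO. In bulk RNA, fewer cells of a type and less RNA per cell cannot be told apart.

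atRA changed many genes by small amounts and few by large ones. Of 11361 tested genes 4314 passed an adjusted p of 0.05 (38.0%), 2203 of them higher with atRA (19.4%) and 2111 lower (18.6%). A difference of at least 2-fold was seen for 88 genes that rose (0.775%) and 30 that fell (0.264%). Rise and fall here mean higher or lower than DMSO at the same time, except where levels over time are given. Differences are given in log2 units of RPKM + 0.5, so a fold change is understated where RPKM is low. Of the called genes 81.3% differed by under 0.5 on this scale. All 4314 moved the same way in both cultures, but they were picked by a test on these same cultures, so this is no separate support. The 4 atRA and 4 DMSO libraries did not overlap for 4555 genes (40.1%), including all 88 genes of the 2-fold rise and 29 of the 30 of the fall. The genes of the 2-fold rise and fall were picked by their values in these same libraries, so their shares are not read against 40.1%. Scaling each library to its sum of reads gave 1335 genes higher and 3547 lower, with a median over all genes of -0.09 in place of -0.004, so the balance of rises and falls depends on the scaling. The plot of difference against level shows the genes with the widest differences.

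**Figure D1:**
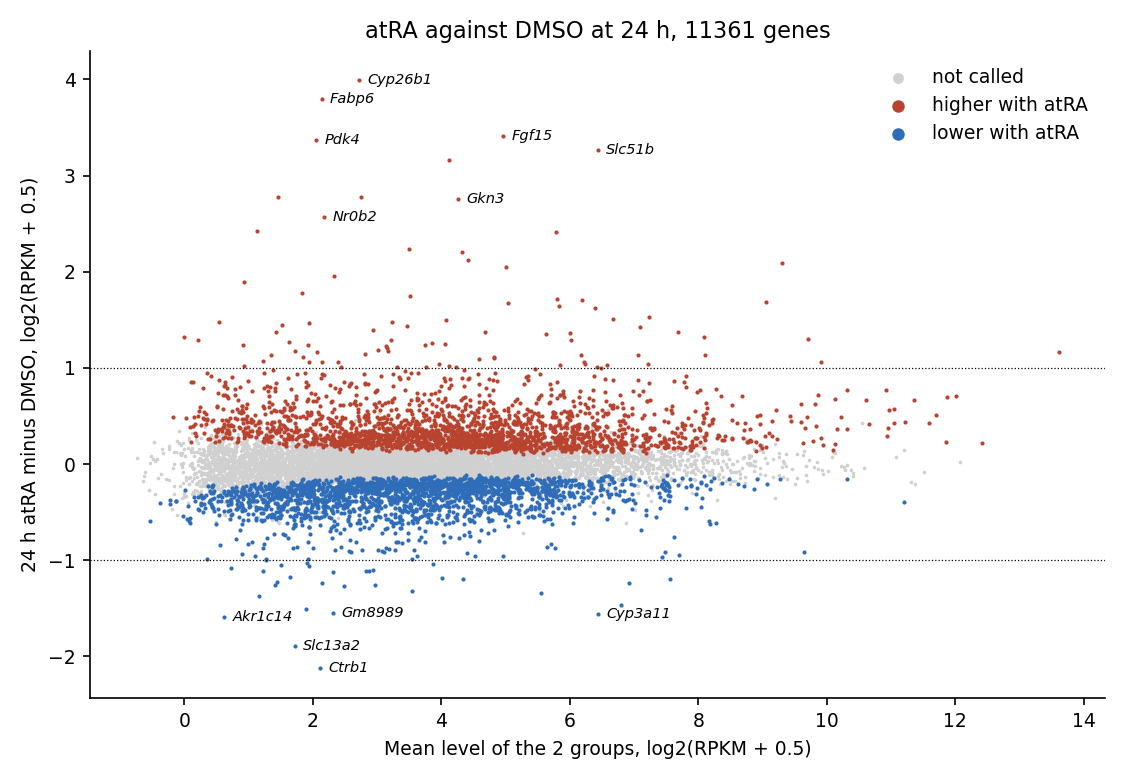
The difference between 24 h atRA and DMSO (vertical axis, log2 of RPKM + 0.5) is plotted against the mean level of both groups (horizontal axis, same scale) for 11361 genes, coloured by the limma call, with dotted lines at a 2-fold difference. The rises reach 3.99 (Cyp26b1) and the falls -2.13 (Ctrb1), and most called genes lie between the dotted lines.

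On the log2 scale of RPKM + 0.5 the widest rise was that of Cyp26b1, an enzyme that oxidizes retinoic acid to inactive products (chromosome 6, 84571414 to 84593908 in RefSeq on GRCm38.p6, as for all positions here). In recovered reads the ratio of atRA to DMSO was 42.1 for Cyp26b1 and 138 for Fabp6, described below. Cyp26b1 had 11.1, 10.3, 13.2 and 13.1 RPKM with atRA, against 0.194, 0.222, 0.337 and 0.374 RPKM with DMSO, in the order culture 1 duplicates and then culture 2 duplicates, as for all lists of 4 values. Every atRA library stood above every DMSO library, and the difference was 3.99 ± 0.12 (SE, adjusted p = 2.54e-10). Of 6 tested genes of retinoic acid catabolism and feedback 4 rose (66.7%) and 1 fell (16.7%), against 19.4% and 18.6% of all genes, with a median of 0.53. Dhrs3, which reduces retinal back to retinol, had 41.2, 38.3, 44.3 and 47.6 RPKM with atRA, against 26.7, 27.5, 30.6 and 32.3 RPKM with DMSO (0.54 ± 0.10, adjusted p = 0.000731). Isx, the repressor of vitamin A uptake, had 179, 174, 194 and 199 RPKM with atRA, against 118, 122, 134 and 145 RPKM with DMSO (0.52 ± 0.10, adjusted p = 0.00155). Both genes were separated between the groups in all libraries, but by far less than Cyp26b1. Stra6, a membrane receptor for retinol, rose by 0.79 ± 0.14 from a low level, and Cyp2s1, a cytochrome that can oxidize retinoic acid, fell by 0.38 ± 0.13, a call that ended when either second DMSO duplicate was left out (adjusted p = 0.0564 without that of culture 1 and 0.0524 without that of culture 2). Cyp26a1, Rarb, Crabp2, Lrat, Hoxb4, Lgr5 and Dclk1 were not among the tested genes and are not analysed here.

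Among 19 tested genes of retinol binding and oxidation 7 rose (36.8%) and 1 fell (5.26%), against 19.4% and 18.6% of all genes (median 0.12). Adh6a, an alcohol dehydrogenase, rose by 1.53 ± 0.18 and Retsat, which saturates retinol, by 1.13 ± 0.18. Aldh1a3, which makes retinoic acid from retinal, and Dhrs9, a retinol dehydrogenase, rose by 0.94 ± 0.14 and 0.82 ± 0.10. Rdh7, a retinol dehydrogenase, went the other way, with 8.85, 8.27, 14.5 and 16.1 RPKM with atRA, against 21.99, 20.9, 30.02 and 37.6 RPKM with DMSO (-1.19 ± 0.24, adjusted p = 0.00166). The 2 cultures differed in the level of Rdh7, yet no atRA library reached the lowest DMSO library. Rbp2, the intestinal retinol-binding protein, was abundant, with 2025, 1979, 2679 and 2877 RPKM with atRA, against 2467, 2222, 2899 and 3228 RPKM with DMSO, and the groups overlapped (-0.18 ± 0.11, adjusted p = 0.225). Under quantile scaling Rbp2 was called lower, at -0.47 (adjusted p = 0.00963). Of 13 retinoid-responsive developmental genes 3 rose and 3 fell, near the shares of 19.4% and 18.6% over all genes, among them Tgm2, a transglutaminase (0.82 ± 0.068), and the homeobox gene Cdx1, which fell by 0.44 ± 0.12 while its relative Cdx2 rose by 0.27 ± 0.063.

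Of 31 nuclear receptor genes 9 rose (29.0%) and 7 fell (22.6%), near the 19.4% and 18.6% of all genes (median -0.05). Rara and Rarg, which encode retinoic acid receptors, rose by 0.22 ± 0.062 and 0.29 ± 0.079, and for Rara the libraries overlapped. Neither call held under read sum scaling (adjusted p = 0.0989 for Rara and 0.0522 for Rarg). Rxra, a partner in these pairs, had 16.7, 16.3, 17.1 and 16.5 RPKM with atRA, against 15.8, 16.2, 16.9 and 18.3 RPKM with DMSO (-0.01 ± 0.058, adjusted p = 0.869). Ppara, the fatty acid receptor, had 22.9, 21.5, 24.9 and 22.6 RPKM with atRA, against 7.87, 8.898, 10.1 and 10.9 RPKM with DMSO, which gave 1.25 ± 0.076 (adjusted p = 1.63e-07), so its level was higher in all atRA libraries. Nr1i2, the xenobiotic receptor PXR, rose by 0.64 ± 0.050, and Nr1h4, the bile acid receptor FXR, by 0.55 ± 0.066. Thrb, a thyroid hormone receptor, fell by 0.41 ± 0.090, with an adjusted p of 0.0715 when culture 2 was left out. Every fit without 1 culture, here and below, took the duplicates of the other culture as samples. The p-values of such fits hold no spread between cultures.

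All 12 tested genes of the bile acid response rose, against 19.4% of all genes, and 5 of them at least 2-fold (median 0.73, against -0.004 over all genes). Fabp6, which carries bile acids inside ileal enterocytes (chromosome 11, 43596040 to 43601562), had 5.26, 4.46, 11.4 and 9.93 RPKM with atRA, against 0.155, 0.0767, 0 and 0 RPKM with DMSO. In recovered reads this was 62, 55, 140 and 123 with atRA and 2, 1, 0 and 0 with DMSO, a ratio of 138 with a 95% exact interval of 47.0 to 674 that covers counting error only. The transcript was close to absent with DMSO, and with atRA both libraries of culture 2 stood above both of culture 1. The difference was 3.80 ± 0.28 on the log2 scale (adjusted p = 9.28e-07).

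Fgf15, the ileal hormone (chromosome 7, 144896532 to 144900953), had 52.8, 60.2, 53.4 and 58.8 RPKM with atRA, against 5.77, 4.94, 4.38 and 4.42 RPKM with DMSO (3.41 ± 0.11, adjusted p = 3.98e-10). Slc51b and Slc51a encode the subunits of the transporter that exports bile acids to the blood. Slc51b had 139, 139, 164 and 182 RPKM with atRA, against 14.98, 13.2, 17.7 and 16.98 RPKM with DMSO (3.27 ± 0.24, adjusted p = 7.54e-07), and Slc51a had 78.2, 78.1, 90.2 and 98.2 RPKM with atRA, against 24.8, 26.9, 27.4 and 29.3 RPKM with DMSO (1.65 ± 0.089, adjusted p = 5.23e-08). Both subunits were higher in all atRA libraries, and the difference of Slc51b was wider. Nr0b2, the repressor SHP that FXR induces, had 6.82, 6.74, 7.81 and 7.67 RPKM with atRA, against 0.955, 0.549, 0.887 and 0.858 RPKM with DMSO (2.57 ± 0.13, adjusted p = 2.99e-08). The uptake transporter Slc10a2 rose less, by 0.48 ± 0.11, with 4.28, 4.32, 5.28 and 4.42 RPKM with atRA, against 2.84, 2.74, 3.58 and 3.44 RPKM with DMSO. The smallest rise in the list was 0.34. Osgin1, an oxidative stress gene, rose by 0.86 ± 0.071. The plot of every library shows that the groups separate in both cultures.

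**Figure D2:**
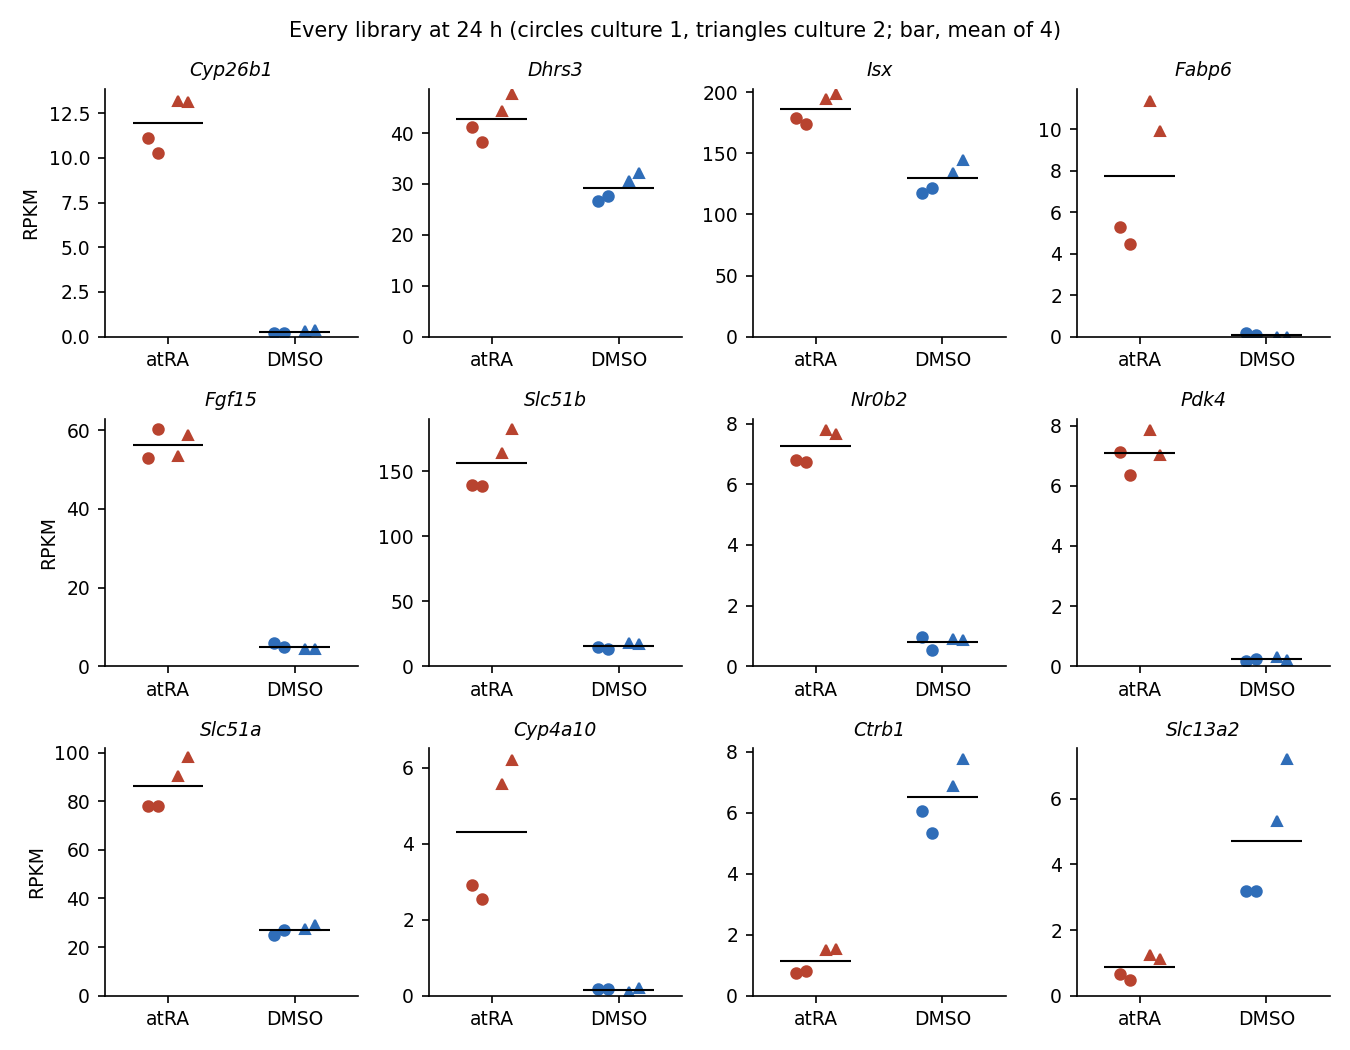
RPKM (vertical axes, starting at 0) of 12 genes in each library at 24 h, with atRA left and DMSO right, circles for culture 1, triangles for culture 2 and a bar at the mean of 4 libraries. 10 genes are higher in all atRA libraries, and Ctrb1 and Slc13a2 are lower in all of them.

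Genes of fatty acid oxidation, targets of PPARs, rose together: 36 of 40 tested rose, against 19.4% of all genes, and none fell (median 0.77, against -0.004 over all genes), 14 of them at least 2-fold. Pdk4, a kinase that shuts glucose carbon out of the mitochondrion, had 7.12, 6.35, 7.85 and 7.01 RPKM with atRA, against 0.1602, 0.249, 0.318 and 0.212 RPKM with DMSO (3.37 ± 0.075, adjusted p = 1.38e-11). Cyp4a10, a fatty acid omega-hydroxylase, had 2.91, 2.55, 5.57 and 6.21 RPKM with atRA, against 0.168, 0.166, 0.102 and 0.212 RPKM with DMSO, with culture 2 higher than culture 1 under atRA (2.78 ± 0.25, adjusted p = 3.71e-06). For both genes the lowest atRA library lay above the highest DMSO library.

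The thioesterases Acot1 and Acot2, which free fatty acids from CoA, rose by 2.05 ± 0.10 and 2.12 ± 0.12, with 44.3 to 58.5 RPKM for Acot1 with atRA and 9.69 to 13.96 RPKM with DMSO. Cpt1a, which brings fatty acids into mitochondria, and the carnitine carrier Slc25a20 rose by 1.01 ± 0.050 and 1.07 ± 0.052. Vnn1, a pantetheinase, rose by 1.37 ± 0.074. The 4 that did not pass were Acsl1, Acadm, Eci1 and Hadh, between -0.07 and 0.10. Acot paralogs are close in sequence, and how reads shared between them were counted is not given in the sources used here.

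Of 13 LXR targets, genes of sterol and fat handling, 10 rose, against 19.4% of all genes, and none fell (median 0.55). Scd1, a fatty acid desaturase, had 338, 333, 447 and 442 RPKM with atRA, against 131, 141, 164 and 184 RPKM with DMSO (1.32 ± 0.10, adjusted p = 8.01e-07), and the sterol exporters Abcg5 and Abcg8 rose by 1.03 ± 0.084 and 1.03 ± 0.087. Abca1, another sterol exporter, had low levels, 0.932, 1.02, 0.835 and 0.7703 RPKM with atRA, against 0.2695, 0.427, 0.547 and 0.572 RPKM with DMSO (0.55 ± 0.11, adjusted p = 0.00205). Its groups did not overlap, but leaving out culture 1 brought the adjusted p to 0.0643. Of 18 fatty acid synthesis genes 11 rose and none fell, led by Acacb, an acetyl-CoA carboxylase that restrains mitochondrial fat oxidation, with 3.28, 3.16, 3.35 and 2.97 RPKM with atRA, against 0.189, 0.174, 0.211 and 0.167 RPKM with DMSO (2.43 ± 0.10, adjusted p = 6.22e-09). Of 32 genes of fat absorption and chylomicrons 17 rose and 1 fell (median 0.24), with Acsl3, an acyl-CoA synthetase, at 1.04 ± 0.087, Apobec1, the editor of the Apob transcript, at 0.94 ± 0.053 and Plin2, a lipid droplet coat, at 0.86 ± 0.068. Apoa4, an apolipoprotein of chylomicrons, had 389, 396, 596 and 666 RPKM with atRA, against 545, 495, 702 and 869 RPKM with DMSO (-0.36 ± 0.23, adjusted p = 0.234), and the groups overlapped. Apoa4 was called lower with voom (adjusted p = 0.0456) and when the fit held the compared groups alone (adjusted p = 0.000133). The latter fit held only the means of 2 cultures in each group and left few residual degrees of freedom, so it barely measures the spread of Apoa4 itself. Of 25 cholesterol synthesis genes 9 rose and 1 fell (median 0.11), and quantile scaling gave 4 higher and 3 lower.

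Genes of dividing cells fell with atRA. Of 40 DNA replication genes 39 fell and none rose, and of 40 mitosis genes all 40 fell, against 18.6% of all genes, with medians of -0.48 and -0.55. Mki67, a marker of cycling cells, had 27.0, 23.9, 26.8 and 22.6 RPKM with atRA, against 39.7, 41.5, 37.3 and 39.6 RPKM with DMSO (-0.65 ± 0.066, adjusted p = 1.04e-05). The lowest DMSO library stood above the highest atRA library. Prim1, a primase subunit, fell by 0.74 ± 0.083, as did the helicase subunit Mcm6 (-0.55 ± 0.050), the mitotic cyclin gene Ccnb1 (-0.61 ± 0.057) and the spindle protein gene Tpx2 (-0.59 ± 0.052). The exception was Pcna, a replication clamp, with -0.01 (adjusted p = 0.969). No member of either list reached 2-fold. Among 15 cell cycle inhibitors 5 rose and 6 fell: Cdkn2b rose by 0.51 ± 0.10 and Cdkn2a by 0.57 ± 0.11 (adjusted p = 0.157 without culture 1), while Cdkn2d (-0.63 ± 0.13) and Cdkn1b (-0.29 ± 0.077) fell.

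Of 26 stem cell and Wnt target genes 12 fell (46.2%, against 18.6% of all genes) and 2 rose (7.69%, against 19.4%), with a median of -0.18. Olfm4, a stem cell marker, had 7.71, 7.92, 12.5 and 9.34 RPKM with atRA, against 17.7, 23.4, 19.8 and 26.2 RPKM with DMSO (-1.18 ± 0.26, adjusted p = 0.00354), with no overlap. The cyclin gene Ccnd2 (-0.55 ± 0.039), Hopx (-0.61 ± 0.078) and the Wnt target Axin2 (-0.38 ± 0.068) fell too. Gkn3, listed here as a crypt base gene and also found in stomach, rose instead, with 31.7, 32.6, 31.6 and 35.97 RPKM with atRA, against 4.23, 4.34, 5.07 and 4.21 RPKM with DMSO (2.75 ± 0.19, adjusted p = 5.45e-07). The 4 atRA libraries were alike and far above DMSO.

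Of 39 enterocyte genes 13 rose (33.3%) and 14 fell (35.9%), and of 33 genes of the proximal small intestine 10 rose (30.3%) and 8 fell (24.2%), against 19.4% and 18.6% of all genes. The enterocyte median was -0.15. Alpi, the brush border phosphatase, had 815, 825, 781 and 813 RPKM with atRA, against 554, 569, 580 and 583 RPKM with DMSO (0.50 ± 0.11, adjusted p = 0.00260, and 0.0722 under quantile scaling), and Gsta1, a glutathione transferase, rose by 0.71 ± 0.066. Sis, the sucrase-isomaltase, had 197, 184, 300 and 297 RPKM with atRA, against 292, 288, 410 and 514 RPKM with DMSO (-0.61 ± 0.18, adjusted p = 0.0193), and its libraries overlapped, with culture 2 higher than culture 1 in both groups. Among brush border peptidases Mme fell by 1.10 ± 0.17, and Vil1, the microvillus actin bundler, rose by 0.32 ± 0.048 (adjusted p = 0.0525 under quantile scaling). Slc40a1, the iron exporter ferroportin, rose by 1.20 ± 0.081. Of 15 ileal genes 9 rose and 3 fell (median 0.48), but 7 of these 15 are also bile acid genes described above. Ctsh, a cathepsin of this list, rose by 0.61 ± 0.044.

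On the log2 scale of RPKM + 0.5 the deepest fall was that of Ctrb1. This chymotrypsinogen gene (chromosome 8, 111686510 to 111691010) had 0.732, 0.793, 1.49 and 1.53 RPKM with atRA, against 6.06, 5.34, 6.88 and 7.77 RPKM with DMSO (-2.13 ± 0.25, adjusted p = 3.27e-05). In recovered reads the ratio of atRA to DMSO was 0.175 for Ctrb1 and 0.148 for Akr1c14, described below. Slc13a2, the brush border citrate and succinate carrier, had 0.672, 0.491, 1.25 and 1.11 RPKM with atRA, against 3.19, 3.18, 5.33 and 7.21 RPKM with DMSO (-1.89 ± 0.21, adjusted p = 2.13e-05). Reg1, a secreted lectin, had 91.2, 90.1, 124 and 153 RPKM with atRA, against 224, 206, 273 and 341 RPKM with DMSO (-1.19 ± 0.16, adjusted p = 8.18e-05). Ctrb1, Slc13a2 and Reg1 were lower in every atRA library, and in each group culture 2 was the higher. In DMSO itself 27 of the 30 genes of the 2-fold fall were higher at 24 h than at 0 h and 3 were lower (median 2.07). Over all 11361 genes 3317 were higher and 3437 lower. The 30 genes were picked with the same 24 h DMSO values, so these counts are descriptions without a test. Other falls were those of the selenium transport protein Selenop (-1.34 ± 0.19), the prostaglandin-inactivating enzyme Hpgd (-1.32 ± 0.16), the lipocalin Mup20 (-1.26 ± 0.18) and the metallothionein Mt2 (-1.24 ± 0.22). The predicted gene Gm8989 (-1.55 ± 0.16) and the complement factor H-related gene Cfhr2 (-1.27 ± 0.12) fell as well, as did Gm8979, with 1.32, 0.871, 1.89 and 1.76 RPKM with atRA, against 4.55, 5.27, 4.51 and 5.44 RPKM with DMSO (adjusted p = 7.96e-06). Over 38 brush border solute carriers 12 rose (31.6%) and 9 fell (23.7%), against 19.4% and 18.6% of all genes. Their median of 0.05 turned to -0.03 under read sum scaling.

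Of 47 phase I drug-metabolizing enzymes 18 fell (38.3%, against 18.6% of all genes) and 9 rose (19.1%, against 19.4%), with a median of -0.22. In DMSO 42 of the 47 were higher at 24 h than at 0 h and 3 were lower, against 3317 higher and 3437 lower of all 11361 genes. Whether this bears on the falls with atRA was not tested. Cyp3a11, the main intestinal drug-oxidizing cytochrome of mouse, had 29.5, 29.9, 56.3 and 64.2 RPKM with atRA, against 113, 109, 136 and 150 RPKM with DMSO (-1.56 ± 0.25, adjusted p = 0.000346), and Cyp2c29 had 49.3, 50.2, 61.1 and 75.5 RPKM with atRA, against 149, 172, 164 and 163 RPKM with DMSO (-1.47 ± 0.16, adjusted p = 1.85e-05). The related Cyp3a44 (-1.24 ± 0.17) and Cyp3a16 (-1.26 ± 0.16) fell, as did the aldo-keto reductase Akr1c14 (-1.59 ± 0.14). By contrast the aldo-keto reductases Akr1b8 and Akr1b7 rose by 1.69 ± 0.067 and 1.51 ± 0.15, and the monooxygenase Fmo5 by 1.37 ± 0.12. Cyp3a and Cyp2c genes are close copies, so a share of their reads could be assigned to a neighbour. Of 38 conjugation enzymes 19 rose and 7 fell, with glutathione transferases such as Gsta2 (0.67 ± 0.069) and Gstt2 (0.50 ± 0.053) among the rises and the sulfotransferase Sult1c2 among the falls (-0.89 ± 0.10). Of 21 NRF2 antioxidant genes 18 rose (85.7%) and none fell, against 19.4% and 18.6% of all genes (median 0.36). Quantile scaling gave 13 higher (median 0.22) and read sum scaling 14 (median 0.27), with none lower in either. Me1 and Osgin1 of this list are also in the fatty acid synthesis and bile acid lists. Srxn1, a sulfiredoxin, was at 0.76 ± 0.044 and Hmox1, the haem oxygenase, at 0.57 ± 0.052.

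Interferon and MHC class I genes rose. Of 29 interferon response genes 23 rose and none fell (median 0.41), and of 27 MHC class I presentation genes 19 rose and none fell (median 0.37), against 19.4% of all genes that rose. Irf1, a transcription factor of this response, had 33.3, 32.04, 31.9 and 34.4 RPKM with atRA, against 19.3, 19.5, 18.8 and 21.7 RPKM with DMSO (0.72 ± 0.049, adjusted p = 5.07e-07). Ifit1bl1 and Oasl2, antiviral genes, rose by 1.43 ± 0.11 and 1.13 ± 0.10. Psmb8, a subunit of the immunoproteasome, rose by 1.27 ± 0.13 from a level of 1.02 to 1.55 RPKM with DMSO. Tapbp, which loads peptide on MHC class I, rose by 0.62 ± 0.057, and H2-D1, a class I heavy chain, by 0.53 ± 0.051, with 219, 223, 229 and 240 RPKM with atRA, against 162, 149, 161 and 157 RPKM with DMSO. Reads of the H2-Q and H2-T copies can be shared among them. Duox2 and its partner Duoxa2, which make hydrogen peroxide at the cell surface, rose by 1.23 ± 0.11 and 1.06 ± 0.15, and the alarmin Il33 by 0.91 ± 0.11. The chemokine Ccl28 fell by 0.77 ± 0.088. Beside these rises, the 3 immune cell markers Itgam, Csf1r and Lyz2 had the summed levels given above, and Csf1r rose by 0.48 ± 0.11 with overlapping libraries. Their part in the rise of the immune genes was not tested.

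Secretory lineages gave few calls. Of 13 enteroendocrine and 4 tuft cell genes none passed the limma test (2 and 0 had an unadjusted p below 0.05), of 13 goblet genes 1 rose, and of 20 Paneth genes 2 rose and 2 fell with a median of -0.40. Over all genes 19.4% rose and 18.6% fell, against 7.69% and 0 of the goblet list and 10.0% and 10.0% of the Paneth list. Muc2, the goblet cell mucin, had 3.44, 2.85, 2.80 and 2.71 RPKM with atRA, against 3.94, 3.84, 2.69 and 3.01 RPKM with DMSO (-0.15 ± 0.11, adjusted p = 0.309), and Lyz1, the Paneth cell lysozyme, had 21.97, 16.1, 35.03 and 30.7 RPKM with atRA, against 29.1, 29.3, 29.1 and 31.7 RPKM with DMSO (-0.26 ± 0.20, adjusted p = 0.342). Both pairs of groups overlapped. Lyz1 was called lower when the fit held the compared groups alone (adjusted p = 0.0352), a fit with few residual degrees of freedom. It was also called, at -0.62, without culture 2 (adjusted p = 0.0115), where the duplicates of culture 1 stood as samples. Neither result measures the spread of Lyz1 between cultures well. Clca1, secreted by goblet cells, rose by 1.35 ± 0.26, Mmp7, a Paneth cell protease, by 0.98 ± 0.14, and Mptx1 fell by 0.99 ± 0.19.

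Genes of other epithelia were also among the risers. Over all genes 19.4% rose and 18.6% fell, against 50% and 12.5% of the stomach list and 35.3% and 35.3% of the squamous list. In the regenerative and fetal-like list these shares were 48% and 4%, and in the tight junction list 50% and 5.56%. Of 8 stomach genes 4 rose and 1 fell, with Cym, a gastric protease of young mice, at 1.96 ± 0.29, next to Gkn3. Sprr1a, a cornified envelope protein, had 917, 1047, 990 and 1154 RPKM with atRA, against 200, 229, 271 and 263 RPKM with DMSO (2.09 ± 0.12, adjusted p = 1.13e-07), and Ivl, involucrin, rose by 1.72 ± 0.17. Other genes of the same squamous list fell, among them the desmosomal genes Dsg3 (-1.38 ± 0.13) and Pkp1 (-1.11 ± 0.077) and the keratin Krt14 (-0.88 ± 0.12), so the list had 6 higher and 6 lower of 17. Of 25 regenerative and fetal-like genes 12 rose and 1 fell (median 0.21), with Il1rn, an interleukin antagonist, at 0.92 ± 0.071 and Plaur, the urokinase receptor, at 0.75 ± 0.071. Plat, a plasminogen activator, had 84.2, 92.6, 95.3 and 97.5 RPKM with atRA, against 13.9, 13.8, 20.4 and 20.7 RPKM with DMSO (2.42 ± 0.10, adjusted p = 7.61e-09). Other wide rises were those of 1810065E05Rik (2.78 ± 0.14), Defb37, a beta-defensin (2.24 ± 0.26), and Ly6g, a member of the Ly6 family (2.20 ± 0.19). Cldn4, a tight junction claudin, rose by 0.85 ± 0.067, in a list with 9 higher and 1 lower of 18.

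None of 47 oxidative phosphorylation genes passed the limma test (median 0.01), and 1 had an unadjusted p below 0.05. Quantile scaling made it 6 lower with a median of -0.07, and read sum scaling 4 lower with -0.08. Of 50 ribosomal protein genes 17 fell and none rose (median -0.14), and these 2 scalings made it 38 and 36. Rps20, a small subunit protein, had the smallest adjusted p of them, at -0.28 ± 0.053 (adjusted p = 0.141 without culture 1). Against 19.4% of all genes higher and 18.6% lower, 6 of 7 colon genes rose and none fell (median 0.39), 11 of 21 villus top genes rose and 1 fell (median 0.26), 10 of 20 immediate early genes rose and 1 fell (median 0.24), and 8 of 21 YAP targets rose and none fell (median 0.18). Of 21 ER chaperone genes 1 fell, and of 27 stress response genes 5 rose and 6 fell. The plot of gene lists shows 14 of the lists described here.

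**Figure D3:**
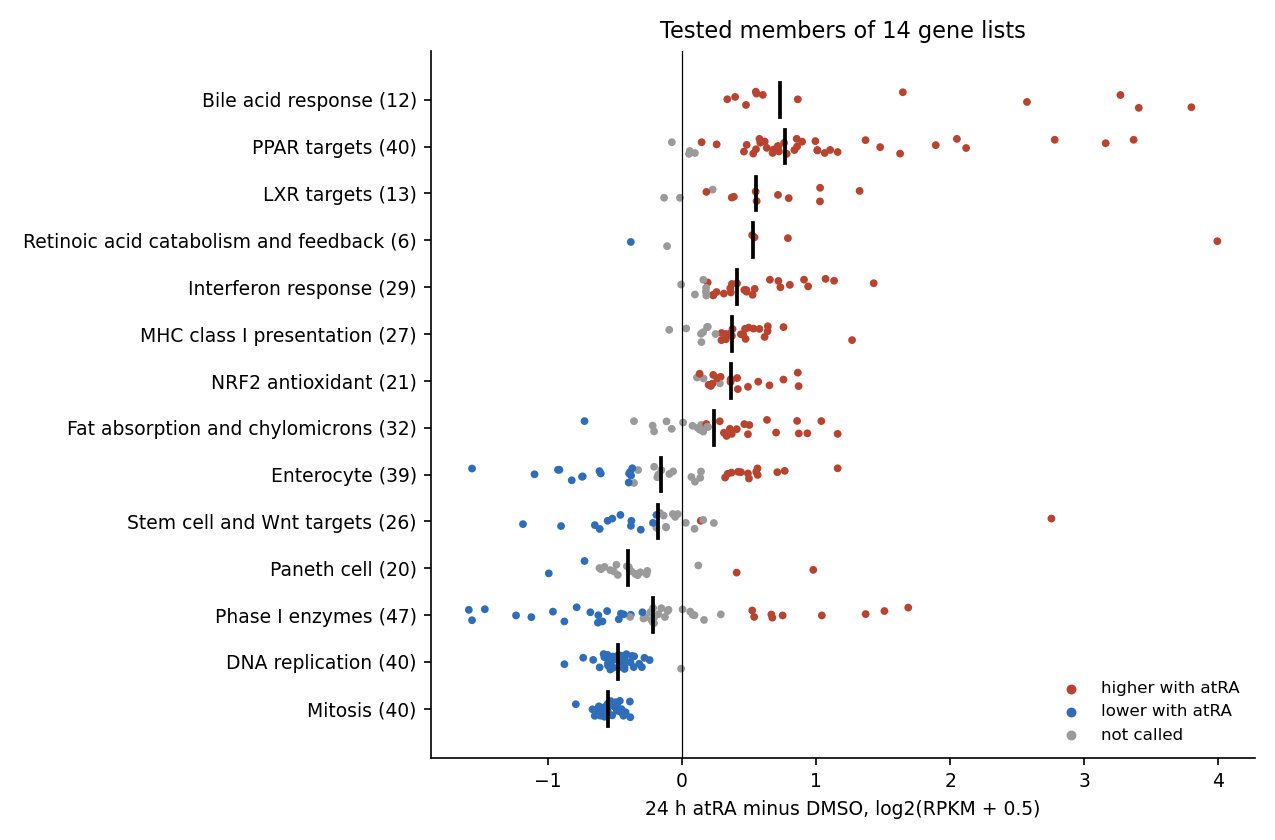
Each point is a tested member of 1 of 14 gene lists (member counts in brackets), placed by its difference between 24 h atRA and DMSO (horizontal axis, log2 of RPKM + 0.5) and coloured by the limma call, with a black bar at the list's median. The bile acid and PPAR lists lie to the right of 0 with medians of 0.73 and 0.77, and the replication and mitosis lists to the left with -0.48 and -0.55.

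At 6 h atRA had raised 317 genes (2.79%) and lowered 212 (1.87%), and the 24 h effect differed from the 6 h effect for 1947 genes (17.1%), 1139 in the upward direction (10.0%) and 808 in the downward direction (7.11%). Effects at both times have DMSO libraries of their own. Of the 88 genes that rose at least 2-fold at 24 h, 62 had already risen at 6 h and none had fallen, and of the 30 that fell, 2 had already fallen. In 71 of the 88 and 24 of the 30 the effect was called larger at 24 h, though these genes were picked by their 24 h values, so that these shares are not read against 17.1%. The median of the 88 was 1.31 at 24 h and 0.57 at 6 h, and that of the 30 was -1.23 and -0.21.

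Fabp6 stood at 0.0779, 0.127 and 7.75 RPKM at 0 h, 6 h and 24 h with atRA, and the difference of effects was 3.52 ± 0.40 (adjusted p = 0.000239). Cyp26b1 was at 0.06001, 0.338 and 11.9 RPKM at those times (3.34 ± 0.17, adjusted p = 3.09e-07). For Cyp4a10 and Nr0b2 it was 2.74 ± 0.35 and 2.18 ± 0.18. Among falls, Ctrb1 differed by -1.90 ± 0.35 (adjusted p = 0.00392), with 0.480, 0.539 and 1.14 RPKM with atRA and 0.480, 0.737 and 6.51 RPKM with DMSO at 0 h, 6 h and 24 h. The level at 24 h was above that at 6 h with both, and by more with DMSO. Cyp2c29, Slc13a2, Reg1 and Akr1c14 differed by -1.71 ± 0.23, -1.71 ± 0.29, -1.66 ± 0.22 and -1.61 ± 0.19.

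For some genes a difference was called at 6 h and no further change was called by 24 h. Gkn3 was already 2.12 ± 0.19 higher at 6 h and the change between times was 0.64 ± 0.27 (adjusted p = 0.117). Cym was 2.04 ± 0.29 higher at 6 h, with -0.08 ± 0.41 between times (adjusted p = 0.909), and Fmo5 1.53 ± 0.12, with -0.16 ± 0.17 (adjusted p = 0.523). The effect on Dhrs3 was 0.54 at 24 h and 1.08 ± 0.10 at 6 h, and that difference of effects passed in the downward direction (-0.54 ± 0.13, adjusted p = 0.0184). The effect on Isx was 0.52 at 24 h and 0.60 ± 0.10 at 6 h, and their difference was not called (-0.08 ± 0.14, adjusted p = 0.733). In the mitosis list 39 of 40 genes had a lower effect at 24 h than at 6 h, against 7.11% of all genes, and the median at 6 h was 0.01. Mki67 was at 53.6, 58.1 and 25.1 RPKM with atRA and at 53.6, 58.5 and 39.5 RPKM with DMSO at 0 h, 6 h and 24 h. The effect at 6 h was -0.01 ± 0.066, and the difference of effects was -0.64 ± 0.093 (adjusted p = 0.00111).

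**Figure D4:**
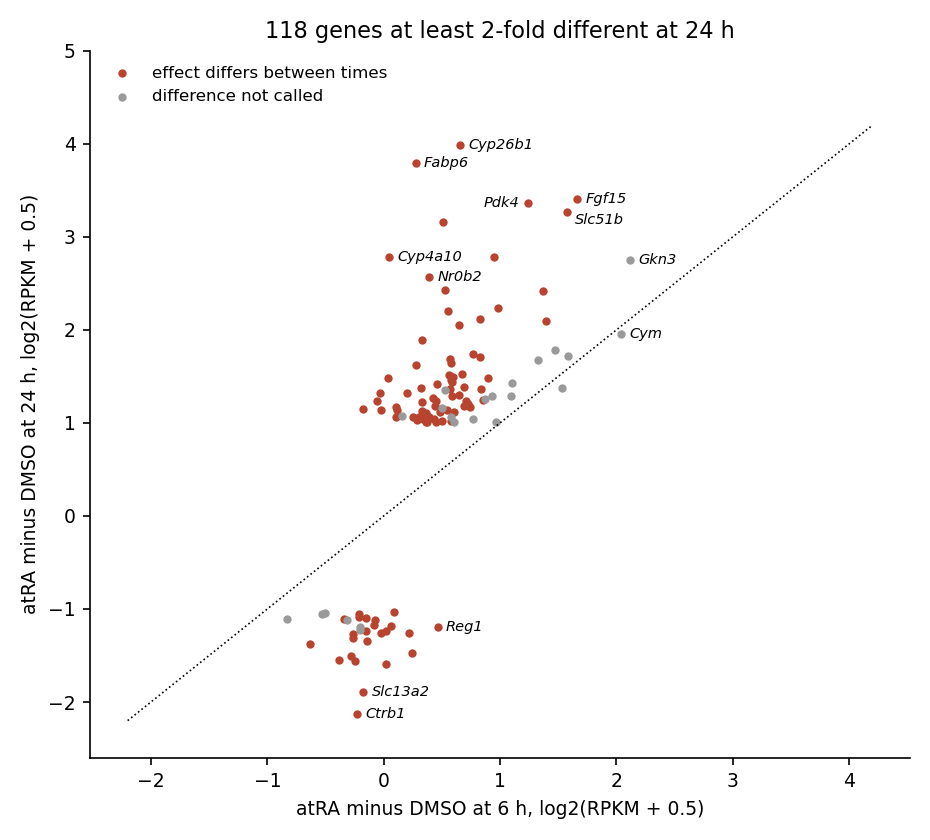
The effect of atRA over DMSO at 24 h (vertical axis) is plotted against that at 6 h (horizontal axis), both as log2 of RPKM + 0.5, for the 118 genes with at least a 2-fold difference at 24 h, with the dotted line where both are equal and red where the difference of effects passed the limma test. Fabp6 and Cyp4a10 lie near 0 at 6 h, and Gkn3 and Cym lie close to the line.

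**Figure D5:**
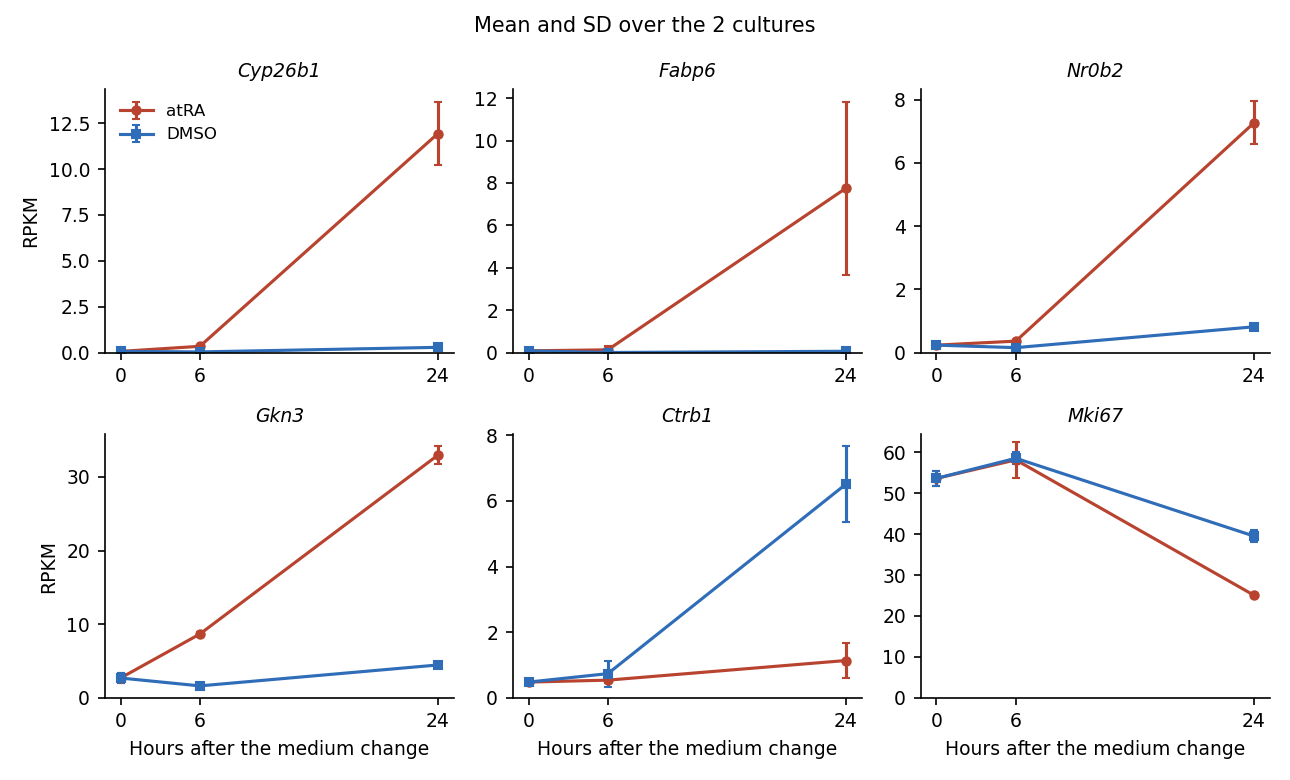
Mean RPKM (vertical axes, starting at 0) of 6 genes at 0 h, 6 h and 24 h (horizontal axes) with atRA (red circles) and DMSO (blue squares), which share the 0 h value, with bars of 1 SD over the 2 cultures. With atRA most of the rise of Cyp26b1 and Fabp6 falls between 6 h and 24 h, and Gkn3 is raised from 6 h on. Ctrb1 rises in DMSO to 6.51 RPKM against 1.14 RPKM with atRA.

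9cisRA, a stereoisomer of atRA with another double-bond geometry, was given at the same dose and time, and the 2 isomers were compared in 1 test for each of 11361 genes. They differed for 53 genes (0.467%), 19 higher with atRA and 34 lower. This count moved with the settings: it was 31 without the first DMSO duplicate of culture 2 and 232 with voom on recovered reads. Fabp6 was the widest of them, with 7.75 ± 4.09 RPKM with atRA and 0.284 ± 0.177 RPKM with 9cisRA (SD, n = 2 cultures), a difference of 3.32 ± 0.28 (adjusted p = 9.11e-05). Cyp26b1 had 11.9 ± 1.74 RPKM with atRA and 5.77 ± 1.40 RPKM with 9cisRA (1.00 ± 0.12, adjusted p = 0.00261). Nr0b2 and Slc51a were also higher with atRA, by 0.67 ± 0.13 and 0.67 ± 0.089, as were the cholesterol synthesis genes Lss and Fdps, by 0.25 ± 0.047 and 0.22 ± 0.043, and ferroportin, by 0.41 ± 0.081.

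Some lipid genes stood lower with atRA than with 9cisRA. Abca1 had 0.888 ± 0.121 RPKM with atRA and 3.08 ± 0.207 RPKM with 9cisRA (-1.37 ± 0.11, adjusted p = 9.11e-05), and Apoa4 512 ± 169 RPKM with atRA and 1204 ± 281 RPKM with 9cisRA (-1.25 ± 0.23, adjusted p = 0.0357). Pdk4, Acacb, Srebf1 and Scd1 differed by -0.96 ± 0.075, -0.84 ± 0.10, -0.75 ± 0.11 and -0.66 ± 0.10, the last 2 encoding a lipid synthesis regulator and the desaturase. For other genes of the response no difference was called: Gkn3 differed by 0.05 ± 0.19 with a 95% interval of -0.36 to 0.46, Ctrb1 by 0.05 ± 0.25 with -0.49 to 0.58, Isx by 0.02 ± 0.10 with -0.21 to 0.24 and Mki67 by 0.10 ± 0.066 with -0.05 to 0.24. Slc51b, at 1.10 ± 0.24 with an interval of 0.60 to 1.61, and Cyp4a10, at -1.01 ± 0.25 with -1.55 to -0.48, missed the threshold after adjustment over all genes (adjusted p = 0.0675 and 0.116), which does not show that the isomers act alike on them.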

How the data were processed

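Poly(A) RNA libraries of mouse intestinal organoids were analysed. The authors deposited 1 table of RPKM values for 12652 genes in 36 libraries; per the submitters' processing notes the tools were bcl2fastq 2.17 and STAR 2.5.2b and the build mm10. How reads were counted, and whether strand was used, is not given in the sources used here. Low RPKM values were whole multiples of 1 read for 100% of genes (tolerance 0.05 reads), which gave recovered reads of 25.0 to 27.1 M reads in atRA libraries and 25.5 to 28.4 M reads in DMSO libraries.

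Duplicates were averaged, and log2(RPKM + 0.5) of the 18 means was fitted with limma 3.58.1 in R 4.3.3, with 9 conditions, culture as a block and an intensity trend, for the 11361 genes with at least 1 RPKM in at least 4 libraries. P-values were adjusted by Benjamini-Hochberg over all tested genes, with a threshold of 0.05. They rest on the spread that remains after the culture block, with 8 residual degrees of freedom pooled over the 9 conditions and 5.01 prior ones. Same-numbered cultures come from the same mouse, which pairs the groups, and the differences between cultures with atRA and with DMSO correlated at 0.517 across genes. The procedure was tested on simulated data. Members and gene lists were chosen with earlier results of these data known. Named genes are the 15 highest and 15 lowest differences of at least 2-fold, up to 6 called members per list with the smallest p, the 5 widest in each direction against 6 h and against 9cisRA, and a panel; uncalled members were named to give a range, and Itgam, Lyz2 and S100b, with other genes in the isomer comparison, Fmo5 and Cym in time, were chosen after their values were seen. Some genes that the rule takes are not reported here. Alternatives covered pseudocounts, filters, scalings, the block, single libraries and cultures, and voom on recovered reads.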

Additional observations from a re-analysis of the deposited data

Results flagged for a closer look

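Among 106 groups of 4 libraries examined for 53 genes, chance flags about 1 in 20, and 4 held a library that stood apart from the other 3. For 1810065E05Rik the second atRA duplicate of culture 1 had 13.6 RPKM against 10.3 to 10.8 RPKM in the others, a gap of 0.841 of the group's range. For Slc10a2 the first atRA duplicate of culture 2 had 5.28 RPKM against 4.28 to 4.42 RPKM, a gap of 0.857. For Gkn3 the first DMSO duplicate of culture 2 had 5.07 RPKM against 4.21 to 4.34 RPKM, a gap of 0.844. For Lyz1 the second DMSO duplicate of culture 2 had 31.7 RPKM against 29.1 to 29.3 RPKM, a gap of 0.913.

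The atRA effect at 24 h differed from that at 6 h for 1947 genes by the limma test of the difference. Wide upward differences on the log2 scale were those of Fabp6 (3.52), Cyp26b1 (3.34), Cyp4a10 (2.74) and Nr0b2 (2.18). The widest downward ones were those of Ctrb1 (-1.90), Cyp2c29 (-1.71), Slc13a2 (-1.71), Reg1 (-1.66) and Akr1c14 (-1.61).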

How the results depend on the processing

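Of the 241 named genes, none that was called in the main fit reversed under any alternative in which it was tested. A change of sign was counted for called genes only. The filter at a mean RPKM of at least 5 kept 188 of the 241. Without the replicate block 29 lost their call. Without that block 1660 genes were higher and 1578 lower, the difference between times was called for 983 genes and that between isomers for 10. Read sum scaling gave 1335 higher and 3547 lower. At an adjusted p below 0.01 there were 1413 higher, 1253 lower, 667 for time and 18 for the isomers. Without culture 1 there were 1243 lower, 635 for time and 112 for the isomers, and 2538 of the 4314 calls were shared. Without culture 2, 51 fell at least 2-fold, 84 differed between isomers and 3490 calls were shared. Both of these fits took the duplicates of the remaining culture as samples, so their calls hold no spread between cultures. At least 2-fold falls numbered 49 with a pseudocount of 0.1, 53 with voom and 9 at a mean RPKM of at least 5, where 57 rose at least 2-fold. The isomer count was 35 under quantile scaling, 30 without the trend, 186 with an estimated duplicate correlation, 232 with voom, 292 with 36 separate libraries (3197 for time) and 352 with the compared groups alone. Leaving out 1 library gave 2122 to 2250 higher, 1994 to 2171 lower, 83 to 92 and 29 to 36 at least 2-fold, 1742 to 2083 for time and 31 to 61 for the isomers. The causes were not tested. With 2 cultures, a difference that was not called is not shown to be absent.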
